A study of Mus musculus with 4 samples.

Results

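The nuclear genes for subunits of the oxidative phosphorylation complexes were examined in the livers of F1 hybrids between the mouse strains B6 and MSM. A gene was included when its name began with Ndufa, Ndufb, Ndufc, Ndufs, Ndufv, Uqcr, Atp5 or Cox4 to Cox8, or was Sdha, Sdhb, Sdhc, Sdhd or Cyc1, and names beginning with Ndufaf were left out. This gave 78 of the 8797 genes in the deposited tables, with 35 in complex I, 4 in complex II, 9 in complex III, 13 in complex IV and 17 in complex V. Ndufa4 was counted with complex IV. Cox7a2l, Atp5s and Atp5sl were included by name but are not core subunits of the complexes they are named for. They are still counted in the values of complex IV (Cox7a2l) and complex V (Atp5s and Atp5sl). The reference lists Atp5sl under the symbol Dmac2.

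Livers of 4 female F1 mice were collected at 5 months of age. In 2 of the mice the mother was MSM and the father B6 (MB), and in 2 the mother was B6 and the father MSM (BM). The parents are inbred and come from separate subspecies of the house mouse, so every F1 mouse carried a haploid chromosome set of each strain. The labels give no treatment. For each gene and mouse, the authors deposited the expression level in FPKM, which is scaled to transcript length and to the size of the library, and the B6-allele frequency, which is the part of the mRNA reads assignable to either strain that carried the B6 base.

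Complexes I to IV form the respiratory chain of the inner mitochondrial membrane. They pass electrons from NADH and succinate to oxygen, and complexes I, III and IV move protons out of the matrix as they do so. Complex V, the ATP synthase, lets the protons flow back and makes ATP. Most subunits are encoded in the nucleus, whereas a small set is encoded in mitochondrial DNA, which is inherited from the mother. Hepatocytes are rich in mitochondria and use this ATP for gluconeogenesis, urea synthesis and secretion. The mitochondrially encoded subunits were not analysed here.

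The reciprocal crosses therefore shared the nuclear strains and differed in the parent that each nuclear allele came from and in the strain of the mother. The labels do not say whether mice of a cross were littermates, so p-values measure the spread between these mice only. Read counts were not among the values analysed, and the depth of each value is unknown. The FPKM summed over all genes ranged from 529024 to 671875 between mice, and the highest sum was that of MB replicate 1. Of the 8 hepatocyte markers 7 had values, with summed FPKM of 13815 to 19455, whereas markers of Kupffer cells (4 of 6 with values) summed to 108.0 to 154.2, of sinusoidal endothelium (5 of 5) to 99.22 to 119.4, of stellate cells (2 of 5) to 65.19 to 91.95 and of blood (3 of 5) to 122.2 to 760.7. The markers of cholangiocytes (4), muscle (6) and brown fat (3) had no values in the tables analysed here.

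The promoters of 64 of the 78 genes were matched in the RefSeq table of the GRCm38.p6 assembly, the same assembly as mm10. 3 of them are shown from 170 bases before to 30 bases after the annotated start, on the strand of the gene. They belong to Atp5e, which had the highest mean B6-allele frequency among the subunit genes, to Ndufab1, which had the lowest, and to Cox6a1, a strongly expressed gene with motifs of both NRF1 and the ETS family. All 3 genes are on the minus strand, and the windows are at chr2:174464072-174464271 for Atp5e, chr7:122101819-122102018 for Ndufab1 and chr5:115348929-115349128 for Cox6a1. Capitals mark motif matches.
Atp5e: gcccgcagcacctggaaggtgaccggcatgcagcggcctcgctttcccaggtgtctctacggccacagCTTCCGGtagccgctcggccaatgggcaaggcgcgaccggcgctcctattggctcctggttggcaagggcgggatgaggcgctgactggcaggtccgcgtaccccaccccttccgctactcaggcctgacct
Ndufab1: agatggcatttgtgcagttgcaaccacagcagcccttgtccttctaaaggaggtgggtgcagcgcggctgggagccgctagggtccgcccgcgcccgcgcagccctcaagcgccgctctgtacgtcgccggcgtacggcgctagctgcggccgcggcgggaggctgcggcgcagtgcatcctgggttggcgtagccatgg
Cox6a1: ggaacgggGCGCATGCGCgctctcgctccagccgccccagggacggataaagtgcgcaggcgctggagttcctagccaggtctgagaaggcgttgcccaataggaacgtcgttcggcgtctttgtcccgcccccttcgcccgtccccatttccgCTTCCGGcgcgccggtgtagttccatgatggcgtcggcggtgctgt
In the Atp5e window the capitals mark the ETS motif on the opposite strand, 102 bases before the start. In the Cox6a1 window they mark the NRF1 motif, which matches both strands in overlap, and the ETS motif 16 bases before the start. None of the 5 motifs searched was found in the Ndufab1 window.

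The 5 motifs are those of factors known to act on nuclear genes for mitochondrial proteins, and each was searched on both strands in the 300 bases from 250 before to 50 after the start. A gene was counted when any of its promoters held the motif, so a gene with more promoters had more chances of a match. The NRF1 motif GCGCATGC was present in 10 of 64 subunit genes (15.6%) and in 3.05% of all 27025 genes with a promoter. Among the 6978 of these that are in the deposited tables, the share was 6.52%. The ETS or GABP motif CCGGAAG was present in 16 subunit genes (25%), against 9.93% and 22.6%. The YY1 motif AAGATGGCG was present in 8 (12.5%), against 1.64% and 4.2%. The ERR motif TCAAGGTCA was present in 2 subunit genes (3.12%), Atp5g3 and Sdhd, against 0.466% and 0.301%. The SP1 motif GGGGCGGGG was present in 9 (14.1%), against 12.9% and 25.3%. The share among subunit genes was thus above both others for NRF1, YY1 and ERR, the last on 2 genes. For the ETS motif it was above that of all genes with a promoter and close to that of the expressed genes. For SP1 it was close to that of all genes with a promoter and below that of the expressed genes. In all, 33 of the 64 genes had at least 1 of these motifs. These matches are a description of sequence and were not tested.

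The subunit genes were among the most strongly expressed genes of the liver. Of the 78, 72 were among the 1000 genes with the highest mean FPKM, out of 8797. All 78 had an FPKM above 0 in every mouse, which held for almost all genes. Only 15 to 27 of the 8797 were at 0 in a given mouse, and the lowest mean FPKM of any gene was 2.50. Together they made up 4.09% and 3.83% of the summed FPKM in MB replicates 1 and 2, and 3.26% and 3.52% in BM replicates 1 and 2. The median FPKM was 141 ± 35.3 (SD, n = 4) for complex I, 210 ± 12.3 for complex II, 366 ± 98.2 for complex III, 366 ± 85.6 for complex IV and 357 ± 83.2 for complex V. Within mice, the order of complexes III, IV and V changed, and complex I was lowest in every mouse. In MB replicates 1 and 2 and BM replicates 1 and 2, the medians were 497, 361, 258 and 348 for complex III. In the same order they were 471, 390, 269 and 336 for complex IV and 475, 329, 280 and 343 for complex V.

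**Figure D1:**
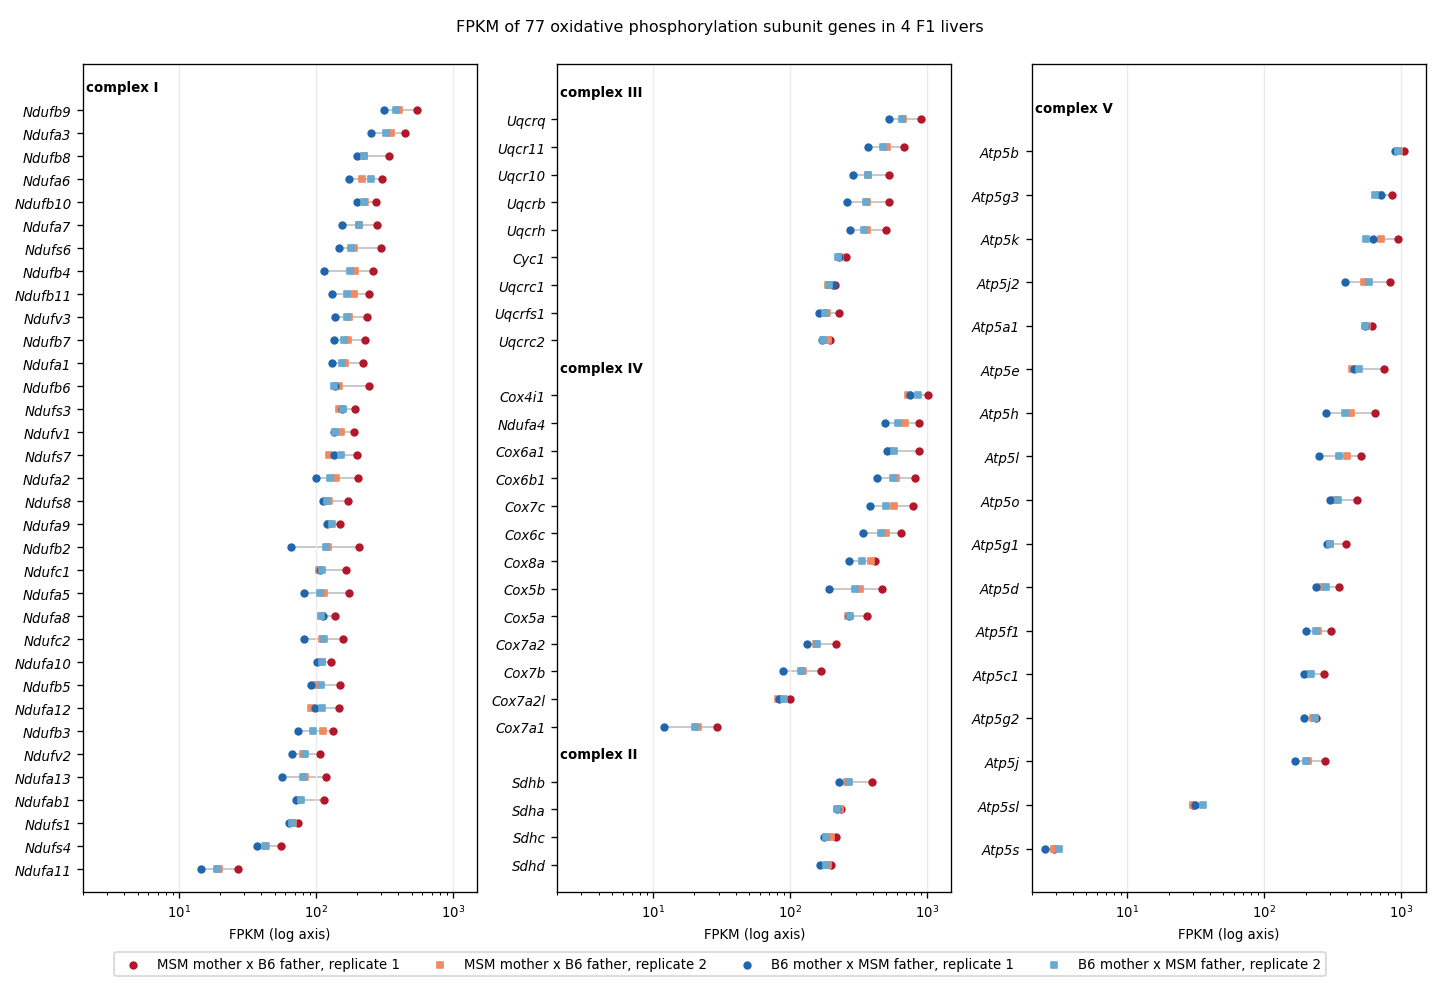
FPKM (log axis) of 77 of the 78 subunit genes in the 4 mice, grouped by complex and ordered by mean FPKM, with a point per mouse and a line from the lowest to the highest mouse. In most genes the highest point is MB replicate 1 and the lowest is BM replicate 1. Over all 78 genes these orders were seen in 76 and 63.

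Complex I, the NADH dehydrogenase, ranged from Ndufa11 to Ndufb9. Ndufb9, an accessory subunit of the membrane arm, had FPKM of 551 and 406 in the MB mice and 312 and 385 in the BM mice. Ndufa3, another accessory subunit, had 445 and 355 with MB and 253 and 324 with BM. At the lower end, the accessory subunits Ndufs4 (55.5, 43.6, 36.9 and 42.5 in MB replicates 1 and 2 and BM replicates 1 and 2) and Ndufa11 (27.2, 19.8, 14.4 and 19.1) were the least abundant. In all 4 of these genes MB replicate 1 was highest and BM replicate 1 was lowest. Among the core subunits, which bear the flavin and iron-sulfur centers and the quinone site, Ndufs1 was the least abundant with a mean FPKM of 67.9. In complex II, the succinate dehydrogenase, the iron-sulfur subunit Sdhb had FPKM of 395, 260, 229 and 271 in the same order of mice. The flavoprotein Sdha (235, 231, 220 and 220) and the membrane anchors Sdhc (215, 200, 177 and 184) and Sdhd (199, 190, 165 and 182) varied less between mice. The 4 subunits lay within 184 and 289 in mean FPKM, a narrower range than that of any other complex.

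In complex III, the cytochrome bc1 complex, the small subunits had higher FPKM than the large ones. Uqcrq had FPKM of 898, 665, 530 and 654, and Uqcr11 had 677, 510, 370 and 475. The Rieske iron-sulfur protein Uqcrfs1 (228, 185, 163 and 179) and the core protein Uqcrc2 (196, 189, 172 and 175) were lowest. The 5 small subunits (Uqcrq, Uqcr11, Uqcr10, Uqcrb and Uqcrh) had means of 370 to 687, and the other 4 genes had means of 183 to 234. Each of the 5 also has a copy elsewhere in the genome (at least 90% identity over 50% of the coding sequence). The other 4 have none. The effect of such copies on FPKM was not tested.

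Complex IV, the cytochrome c oxidase, was led by Cox4i1, the isoform of subunit 4 found in most tissues, with FPKM of 1015, 719, 750 and 850. Ndufa4 followed with 865, 691, 489 and 609. Cox7a1, the isoform of heart and skeletal muscle, was lowest with 29.3, 21.1, 12.1 and 20.2, whereas Cox7a2, its counterpart in liver and other tissues, had 216, 154, 132 and 158. The Cox7a2 value was above the Cox7a1 value in every mouse. Cox7a2l, which helps join complexes III and IV into supercomplexes and of which B6 is known to carry a short form, had 100, 81.3, 83.4 and 90.8. The other listed genes of the tissue-isoform set were Cox6a1 (873, 534, 507 and 568), Cox6b1 (809, 589, 431 and 567), Cox8a (418, 390, 267 and 336) and Cox7b (167, 124, 88.9 and 120). In all, 11 of the 18 genes of that set had values here.

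In complex V the catalytic subunits were high and varied little. Atp5b, the beta subunit of the catalytic head, had the highest mean of all 78 genes, with FPKM of 1047, 967, 902 and 936, and the alpha subunit Atp5a1 had 614, 556, 543 and 544. Subunit c, which forms the rotating ring, is encoded by a set of genes for the same mature protein, among which Atp5g3 (860, 701, 703 and 644) was above Atp5g1 (397, 299, 288 and 300) and Atp5g2 (239, 228, 196 and 234) in every mouse. Atp5g1 was also above Atp5g2 in every mouse. Atp5g1 and Atp5g2 have 4 and 5 similar copies elsewhere in the genome (closest 99.8% and 100% identical), whereas Atp5g3 has none. Reads placed at such copies would be missing from the FPKM of the gene, so this order is uncertain to that extent. The lowest values belonged to Atp5sl (30.1, 30.3, 31.2 and 35.7) and Atp5s (2.93, 2.93, 2.50 and 3.15), which are not core subunits of complex V. Atp5sl and Atp5s were also the only 2 of the 78 genes that were not highest in MB replicate 1.

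To ask whether expression depended on the direction of the cross, the MB and BM mice were compared on log2(FPKM + 1) with limma. None of the 78 genes differed at an adjusted p-value under 0.05, where 0.0455% of all genes tested did. An unadjusted p-value under 0.05 was found in 8 of them and in 780 of all 8797 genes, which is a similar share. The mean of the MB mice was higher in 77 genes and lower in 1, Atp5sl, and the median difference was 0.33 on the log2 scale, beside 0.02 over all genes. Both MB mice were above both BM mice in 47 of 78 genes, where 23% of all genes showed this order, and below them in 1 gene, where 19.4% did. By complex, the median difference was 0.39 in complex I, 0.18 in complex II, 0.39 in complex III, 0.47 in complex IV and 0.23 in complex V, and it was 0.18 among the core subunits of complex I. Ndufb3, an accessory subunit of complex I, had the lowest p-value of the subunit genes, with FPKM of 134 and 112 in the MB mice and 74.7 and 95.7 in the BM mice (difference of 0.53, SE 0.18, limma adjusted p = 0.525). The groups did not overlap for Ndufb3. Ndufb2, also an accessory subunit, had the largest estimate, with 208 and 122 against 66.2 and 118 (0.84, SE 0.36, limma adjusted p = 0.570). Here the second MB mouse was only slightly above the second BM mouse.

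The difference was carried mainly by 1 mouse of each cross. MB replicate 1 was the highest mouse in 76 of 78 genes, where it was the highest in 39.1% of all genes, and BM replicate 1 was the lowest in 63, where it was the lowest in 32.3% of all genes. Relative to the mean of the 4 mice, the subunit genes had a median of 0.41 in MB replicate 1 and -0.28 in BM replicate 1, and of -0.02 and -0.05 in the replicates 2 of MB and BM. Over all genes the same medians lay between -0.02 and 0.03. The difference between the replicates 1 of the crosses was 0.70 in the median subunit gene and 0.05 in the median of all genes, and that between the replicates 2 was 0.04 and -0.01. Without MB replicate 1 the median difference between the crosses was 0.13, with the MB mean higher in 64 genes, and without MB replicate 2 it was 0.59. The range over the omission of each mouse was 0.13 to 0.59, and none of the genes was called in any of these fits. With FPKM scaled to the same sum in every mouse, the median difference was 0.20 (66 genes higher with MB), where the median of all genes moved to -0.10.

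**Figure D2:**
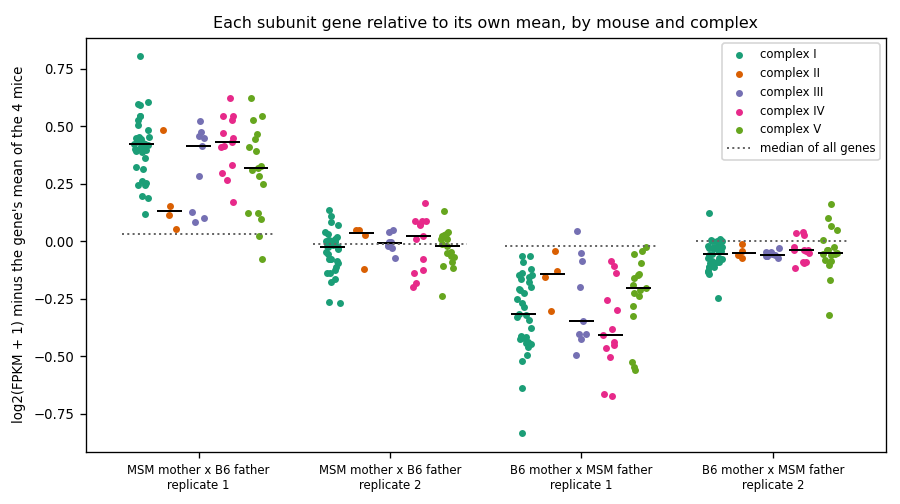
Each point is a subunit gene, plotted as its log2(FPKM + 1) minus its mean over the 4 mice, by mouse and complex. Horizontal bars are medians of a complex and dotted lines are medians of all genes. The points of MB replicate 1 lie mostly above 0 (median 0.41) and those of BM replicate 1 mostly below (median -0.28).

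Transcript length moved with this difference. The length of a gene was taken as the median over its annotated transcripts. The subunit transcripts are short, with a median length of 751 nt against 2468 nt over all genes. Between the replicates 1 of the crosses, the 25 subunit genes under 600 nt had a median difference of 0.86, and the 202 other genes of that length had 0.55. From 600 to 1000 nt the medians were 0.70 for 24 subunit genes and 0.44 for 693 others, and from 1000 to 2000 nt they were 0.36 for 22 and 0.22 for 2363. At 2000 nt and over they were 0.32 for 7 and -0.06 for 5417. Short genes outside the complexes thus also had higher FPKM in MB replicate 1 than in BM replicate 1, by less than the subunit genes in each bin. In the longest bin, however, Ndufb2, Ndufab1 and Atp5g1 have coding sequences of only 315, 468 and 408 nt. The other subunit genes of that bin have 1065 to 2181 nt. Which transcript of a gene was expressed was not determined, so the comparison in this bin is less sure. Between the replicates 2, the subunit genes had medians of 0.02 to 0.05 in the same bins and the other genes had -0.13 to 0.01. A fall with length was also seen between mice of the same cross. From the shortest bin to the longest, MB replicate 1 minus MB replicate 2 was 0.46, 0.46, 0.30 and 0.21 in subunit genes. The other genes had 0.38, 0.32, 0.19 and -0.04. For BM replicate 2 minus BM replicate 1, the medians were 0.36, 0.24, 0.14 and 0.07, and 0.25, 0.15, 0.07 and -0.02 in the other genes. After each mouse was centred within bins of transcript length, the median difference between the crosses fell to 0.16 and the MB mean was higher in 64 of 78 genes. Some markers of other cell types also differed in mean between the crosses. The 4 Kupffer cell markers with values were all lower in both MB mice than in both BM mice (median difference -0.42), where 19.4% of all genes were. The 5 endothelial markers had a lower MB mean (-0.22), with both MB mice below both BM mice in 3. The 3 blood markers had a median difference of -2.02 (2 lower and 1 higher in the MB mean), with that order in 2. The 7 hepatocyte markers had one of 0.55 (6 higher and 1 lower). Both MB mice were above both BM mice in 5 of the 7, where 23% of all genes showed this order. The 2 stellate markers had a median difference of 0.08 (1 higher and 1 lower), with both MB mice above in 1. None of these markers was called in the comparison of expression (limma adjusted p-value). The part of cell composition in the difference was not tested, and in whole liver the number of cells of a type and the RNA per cell cannot be told apart.

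**Figure D3:**
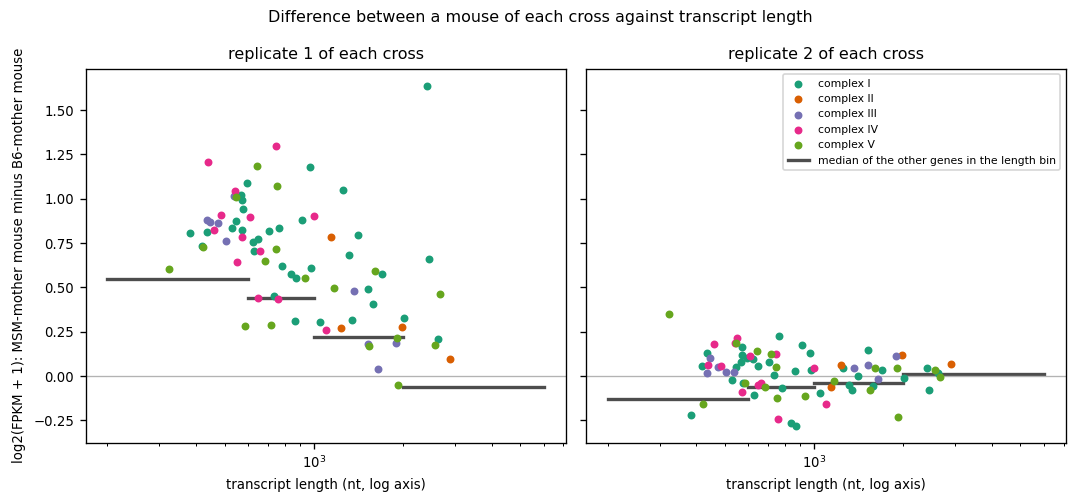
Difference in log2(FPKM + 1) between the MB and BM mouse of the same replicate number, plotted against median transcript length (nt, log axis), with a point per subunit gene colored by complex. Dark bars are medians of the other genes in the length bins, and the first and last bars stand for bins with an open end. Between the replicates 1 the bar of the shortest genes is at 0.55 and that of the longest at -0.06, whereas between the replicates 2 the subunit genes have medians of 0.02 to 0.05 in all bins.

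Genes that act with the complexes followed in part. Of 50 assembly factors 44 had values, and the MB mean was higher in 40 of them (median 0.19, 0 called, both MB mice above both BM mice in 23, where 23% of all genes showed this order). Uqcc2, an assembly factor of complex III, had FPKM of 88.5, 65.1, 54.1 and 66.1, and the copper chaperone Cox17 had 125, 98.9, 71.7 and 84.2. Sco2, another copper chaperone, had 99.3, 62.8, 91.9 and 76.6, and Higd2a had 99.3, 83.5, 87.7 and 88.6. MB replicate 1 was the highest mouse in all 4, and BM replicate 1 was the lowest in Uqcc2 and Cox17 but not in Sco2 or Higd2a. Among 6 electron carriers and neighbouring enzymes the median difference was 0.15, with Cycs, the cytochrome c of somatic tissues, at 61.7, 53.6, 34.5 and 42.8. Etfb (611, 485, 416 and 481) and Etfa (409, 366, 327 and 350), the electron transfer flavoproteins of fatty acid oxidation, and Etfdh (181, 175, 161 and 172), which passes their electrons to quinone, were the most abundant. The 12 listed transcriptional regulators of mitochondrial genes had a median difference of -0.00, with 6 higher and 6 lower in the MB mean. Among them Ppara, the fatty acid sensor, had 38.6, 47.8, 42.6 and 57.8, Yy1 had 19.2 to 21.3, Tfb2m, a mitochondrial transcription factor, had 22.1, 19.7, 18.7 and 20.1, and Esrra, the ERR alpha receptor, had 16.5, 17.3, 15.1 and 16.7. None of the genes in these 3 lists was called in the comparison of expression (limma adjusted p-value), and 8 of the 44 assembly factors, 1 of the 6 electron carriers and neighbours and 0 of the 12 regulators had an unadjusted p-value under 0.05, beside 780 of all 8797 genes.

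A B6-allele frequency was given for 26 of the 78 subunit genes (33.3%), always in all 4 mice, beside 41.3% of all genes. Of these, 10 belonged to complex I, 0 to complex II, 3 to complex III, 4 to complex IV and 9 to complex V. Whether a gene had a frequency followed its position. All 26 lay beyond 100 Mb on chromosomes 1 to 15 and X or beyond 10 Mb on chromosomes 16 to 19, as did 31 of the 78 genes, whereas none of the 47 below these coordinates had a frequency. Over all genes, 3525 of 3925 beyond the coordinates and 95 of 4845 below them had a frequency. A further 5 subunit genes beyond the coordinates had no frequency. The allele results below therefore cover a share of the complexes set by position, and the other 52 genes have no allele result.

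Most of the 26 subunit genes with a frequency had a mean near 0.5, as did most of all genes. The median of the mean B6-allele frequency was 0.490, beside 0.510 over all genes, and 23 of 26 genes (88.5%) lay between 0.4 and 0.6, beside 79% of all genes. The frequencies also varied little between mice, with a median SD of 0.0124 over the 4 mice against 0.0272 over all genes. The subunit genes had a median FPKM of 170 to 245 in the mice, however, against 11.2 to 11.7 over all genes. Genes of higher FPKM tend to have more reads behind a frequency, and these comparisons were not matched for expression. None of the 26 had a mean frequency at or above 0.8, where 1.84% of all genes did, or at or below 0.2, where 1.35% did. With thresholds of 0.7 and 0.3, 1 gene, Atp5e, was past the upper threshold.

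**Figure D4:**
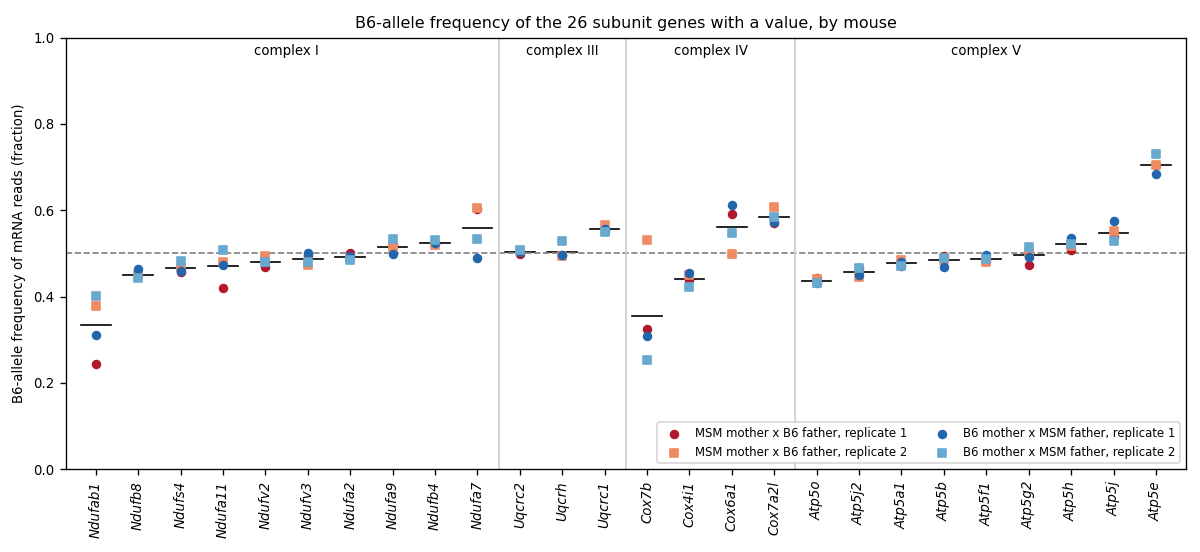
B6-allele frequency of the 26 subunit genes with a value, by complex, with a point per mouse and a bar at the mean of the 4 mice. The dashed line is equal use of both alleles (0.5). Atp5e stands highest with a mean of 0.706, and Ndufab1 (0.334) and Cox7b (0.355) stand lowest.

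Each gene was tested against equal allele use on the scale of log2 odds (B6 over MSM), with both crosses averaged. In this test 9 of the 26 genes (limma adjusted p-value under 0.05) differed from equal use, where 36.2% of all genes did. The allele was B6 in 4 of them, where 22.6% of all genes were called toward B6, and MSM in 5, where 13.6% were called toward MSM. Most calls were small departures from 0.5 that the mice shared closely.

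Atp5e had the largest departure. It encodes the epsilon subunit in the central stalk of the ATP synthase and lies on chromosome 2 (174461072 to 174464105, minus strand, mm10) as a protein-coding gene. Its B6-allele frequency was 0.706 and 0.704 in the MB mice and 0.684 and 0.731 in the BM mice (log2 odds of 1.27, SE 0.08, limma adjusted p = 0.00489, n = 4), so the B6 allele gave more reads than the MSM allele in all 4 mice of both crosses. The adjusted p-value ranged from 0.0026 to 0.0449 over the 11 other settings, and it is the only subunit gene that was called in all of them. No other genomic sequence was 90% or more identical to at least 50% of its coding sequence. The neighbouring genes with a frequency did not share the direction. Slmo2, 0.962 kb away on the same strand, had 0.462, 0.484, 0.458 and 0.463, and Ctsz, 22 kb away on the other side, had 0.408, 0.407, 0.450 and 0.464. Both lay under 0.5 in every mouse.

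The other calls toward B6 were smaller. Cox7a2l (chromosome 17 from 83501918 to 83517330) had frequencies of 0.570, 0.607, 0.573 and 0.585 in MB replicates 1 and 2 and BM replicates 1 and 2 (log2 odds of 0.49, limma adjusted p = 0.0157). Uqcrc1, a core protein of complex III (chromosome 9 from 108936633 to 108949623), had 0.553, 0.566, 0.557 and 0.550 (0.33, limma adjusted p = 0.0176). Both were above 0.5 in all 4 mice. Ndufa7, an accessory subunit of complex I (chromosome 17 from 33824572 to 33838317), had 0.602, 0.605, 0.490 and 0.533 (0.34, limma adjusted p = 0.0328), and was above 0.5 in 3 of 4 mice.

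Toward MSM, Ndufab1 had the largest departure. It encodes the mitochondrial acyl carrier protein, which is a subunit of complex I and also serves lipoic acid synthesis, and lies on chromosome 7 from 122085403 to 122101886, minus strand. Its frequency was 0.243 and 0.379 in the MB mice and 0.312 and 0.402 in the BM mice (log2 odds of -1.02, SE 0.22, limma adjusted p = 0.0422, n = 4), below 0.5 in all 4 mice with a wide spread. Its neighbours Ubfd1, 3.21 kb away, and Dctn5, 31.2 kb away, had frequencies of 0.461 to 0.567 and 0.470 to 0.534. The genome holds 2 other sequences similar to the Ndufab1 coding sequence, the closest 99.8% identical over its whole length, and reads of such copies could be assigned to either place, so its frequency is uncertain.

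The other 4 calls toward MSM were tight between mice. Atp5o, the stalk protein that ties the catalytic head to the stator (chromosome 16 from 91925214 to 91931687), had 0.442, 0.440, 0.431 and 0.432 (log2 odds of -0.37, limma adjusted p = 0.0123). Cox4i1 (chromosome 8 from 120668222 to 120674207) had 0.439, 0.449, 0.455 and 0.423 (-0.34, limma adjusted p = 0.0253). Ndufb8, an accessory subunit of the membrane arm of complex I (chromosome 19 from 44548572 to 44555440), had 0.449, 0.449, 0.463 and 0.444 (-0.28, limma adjusted p = 0.0249). Each of these was below 0.5 in all 4 mice. Atp5j2, subunit f of the ATP synthase membrane part (chromosome 5 from 145183698 to 145192062), had 0.466, 0.445, 0.450 and 0.467 (-0.25, limma adjusted p = 0.0396). It too was below 0.5 in every mouse.

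Similar copies elsewhere in the genome limit some of these values. By the same criterion of identity, 36 of the 78 genes, and 14 of the 26 with a frequency, have at least 1 copy elsewhere in the genome, and Atp5l has the most with 15. The authors reported at most a single alignment per read, so reads that match a gene and its copy equally well could be placed at either. Such placement bears on the FPKM of a gene as well as on its frequency. Of the uncalled genes with a frequency, Ndufb4 and Atp5g2 (both 100% identical), Atp5h (99.0%) and Atp5f1 (98.8%) have the closest copies. Their frequencies are uncertain to that extent. Among the called genes, Atp5e, Uqcrc1, Cox4i1 and Ndufb8 have no such copy, whereas Cox7a2l (closest copy 97.1% identical), Atp5o (97.0%), Ndufa7 (94.1%), Atp5j2 (93.9%) and Ndufab1 have 1 to 3, and their frequencies are uncertain to that extent. Fewer of these genes were called when a mouse was left out, in fits with fewer mice. The log2 odds of the 9 genes kept their direction in each of these fits. They were -0.37 in all of them for Atp5o and -0.78 to -1.25 for Ndufab1. Without any of the 4 mice in turn, Atp5e was the only one of the 9 genes still called, with 1 subunit gene called without MB replicate 1, 2 without MB replicate 2, where Cox7b was added, and 1 each without BM replicate 1 and BM replicate 2. In the same fits the calls over all genes fell from 1316 to 439, 514, 202 and 181.

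The remaining genes of complex I lay close to 0.5. Ndufs4 had 0.458, 0.466, 0.460 and 0.482, below 0.5 in every mouse, and Ndufv2, a core subunit with an iron-sulfur center, had 0.469, 0.494, 0.480 and 0.480, also below it in every mouse. Ndufb4 was above 0.5 in every mouse with 0.522, 0.520, 0.523 and 0.531. Ndufa11 had 0.420, 0.479, 0.474 and 0.509, and Ndufv3, an accessory subunit beside the flavin site, had 0.497, 0.474, 0.501 and 0.479. Ndufa2 had 0.501, 0.489, 0.493 and 0.485, and Ndufa9 had 0.519, 0.515, 0.499 and 0.534. These 4 genes had mice on both sides of 0.5. In complex III, Uqcrc2 had 0.499, 0.506, 0.504 and 0.507, the smallest spread of the 26 genes, and the hinge protein Uqcrh had 0.496, 0.495, 0.497 and 0.529, with BM replicate 2 apart from the others. In complex IV, Cox6a1 had 0.591, 0.499, 0.612 and 0.547, and the mice spread more widely than in most genes (SD 0.0502).

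In complex V, the subunits of the catalytic head were below 0.5 in every mouse. Atp5a1 had 0.471, 0.485, 0.479 and 0.471, and Atp5b had 0.494, 0.485, 0.469 and 0.490. The stator subunit b, Atp5f1, was also below 0.5 in every mouse, with 0.483, 0.479, 0.497 and 0.486, whereas the stator subunit d, Atp5h (0.508, 0.518, 0.535 and 0.521), and coupling factor 6, Atp5j (0.539, 0.551, 0.574 and 0.529), were above it in every mouse. Atp5g2 had 0.474, 0.502, 0.492 and 0.514, on both sides. The adjusted p-values of these genes ranged from 0.0542 for Atp5j to 0.744 for Atp5g2 (limma), so none of these departures passed the threshold.

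Cox7b, the only X-linked subunit gene with a frequency among 3 on the X chromosome, behaved differently from the autosomal genes. In female mammals either X chromosome is silenced in each cell, so the frequency of an X-linked gene in a tissue also depends on the share of cells in which each X is active. Cox7b (X chromosome from 106015700 to 106022450) had frequencies of 0.326, 0.532, 0.308 and 0.253 (log2 odds of -0.90, SE 0.25, limma adjusted p = 0.0754), the largest spread of the 26 genes (SD 0.122). The median of the 78 X-linked genes with a frequency was 0.323, 0.532, 0.325 and 0.265 in the same mice. Cox7b was within the quartiles of these genes in every mouse, and MB replicate 2, where Cox7b was highest, was also the highest mouse in 72 of the 78 genes. 57 of them were above 0.5 in MB replicate 2, against 4, 4 and 3 in MB replicate 1 and BM replicates 1 and 2. Its neighbours Magt1 (0.346, 0.585, 0.356 and 0.290) and Pgk1 (0.281, 0.506, 0.284 and 0.227) had the same order of mice at the top and the bottom. Without MB replicate 2, Cox7b was called toward MSM (limma adjusted p = 0.0477). Cox7b also has 4 similar sequences in the genome, the closest 96.7% identical.

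**Figure D5:**
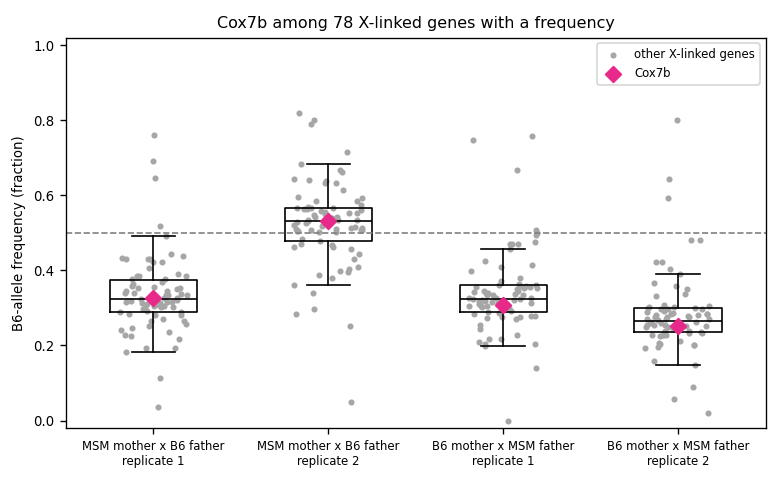
B6-allele frequency of the 78 X-linked genes with a value in each mouse. Gray points are genes, boxes span the quartiles with the median as a line, whiskers reach the farthest gene within 1.5 times the box height, and the diamond is Cox7b. In every mouse the diamond is inside the box, at 0.326, 0.532, 0.308 and 0.253.

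To ask whether allele use depended on the parent of origin, the frequencies of MB and BM mice were compared in the same model. None of the 26 genes differed between the crosses at an adjusted p-value under 0.05 (limma), where 0.0826% of all genes did. An unadjusted p-value under 0.05 was found in 1 of the 26, beside 190 of all 3632 genes. This gene was Ndufa7, with 0.602 and 0.605 in the MB mice and 0.490 and 0.533 in the BM mice (difference in log2 odds of 0.54, SE 0.13, limma adjusted p = 0.873). Both MB mice were above both BM mice in 3 genes, Atp5o, Cox7b and Ndufa7, where 18.4% of all genes showed this order. Both were below in 4 genes, Atp5f1, Atp5h, Ndufb4 and Uqcrh, where 15.9% of all genes did. A comparison of 2 mice with 2 mice allows no exact permutation p-value below 0.333, so this test relied on a variance estimated over many genes.

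Among the genes that act with the complexes, 17 assembly factors had a frequency, and 8 of them were called in the same test of allelic imbalance, 5 toward B6 and 3 toward MSM, where 36.2% of all genes were called (22.6% toward B6 and 13.6% toward MSM). Toward B6 these were Coa4 (0.615, 0.594, 0.558 and 0.603 in MB replicates 1 and 2 and BM replicates 1 and 2), Coa6, Coa7, Taco1 and Timmdc1, with mean frequencies of 0.574 to 0.593. Coa4, Coa6, Coa7 and Taco1 act in the making of complex IV, and Timmdc1 in that of complex I. Toward MSM they were Atpif1, Coa3 and Ndufaf5. Atpif1, the inhibitor of the ATP hydrolysis of complex V, had 0.359, 0.324, 0.338 and 0.324 (log2 odds of -0.98, SE 0.06, limma adjusted p = 0.00525), below the values of every subunit gene of complex V in all 4 mice. Of 5 regulators with a frequency none was called, with 1 at an unadjusted p-value under 0.05 (limma), beside 1782 of all 3632 genes. Among 3 electron carriers and neighbouring enzymes, Dhodh, which feeds electrons from pyrimidine synthesis to quinone, was called toward MSM with 0.426, 0.456, 0.324 and 0.307. The other 2, Etfa (1.00, 0, 0.571 and 0.167) and Etfb (0, 1.00, 0.50 and 0.571), lie below 100 Mb on their chromosomes, and their frequencies ran from 0 to 1 between mice of the MB cross.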

How the data were processed

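Livers of 4 female F1 mice were analysed by mRNA-seq of poly(A) RNA with strand-specific libraries, and mice were grouped by the parents named in the labels. The deposited FPKM values are the authors' estimates per gene, from reads trimmed with Trim Galore and aligned by TopHat2 to the mm10 sequence with SNP sites masked (tools and build per the submitters' processing notes). The deposited fraction, the B6-allele frequency, is the authors' ratio of B6 reads to B6 plus MSM reads of a gene, after SNPsplit had sorted the alignments and Cuffdiff had counted them. Tool versions are not given in the sources used here. Without counts the depth is unknown, so no interval was computed for a single value.

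All 8797 genes were fitted with limma 3.58.1 in R 4.3.3, and only subunit and listed genes are reported. Frequencies were limited to 0.01 to 0.99, turned into log2 odds and tested against 0.5 as the mean of both crosses, with the cross term as the difference between crosses (3632 genes). Expression was tested on log2(FPKM + 1) with a variance trend where the mean FPKM was 1 or more, and a fold change on this scale understates that of low genes. Two-sided p-values were adjusted by Benjamini and Hochberg over all genes of a test, with a threshold of 0.05. The scripts were tested on simulated data. The planted effects were 2 in log2 odds, 6 in the difference of log2 odds between crosses and 2 in log2 expression. Smaller effects were not simulated, so the power to find them is unknown.

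Positions and lengths came from GENCODE for 77 subunit genes and from a RefSeq synonym for 1. Copies were searched with BLAST 2.17.0 (at least 90% identity over 50% of the coding sequence). Python 3.11.15, numpy 2.4.6, pandas 2.3.3, scipy 1.17.1 and matplotlib 3.10.9 were used. Equal replicate numbers mark no shared litter or batch in the labels, so no replicate block was fitted in the main models. The members and gene lists were chosen with earlier results of these data known. Values in every mouse are given for the genes with a frequency, the 2 highest and 2 lowest genes of each complex and the listed tissue isoforms, and for up to 4 genes of each other list and called genes. Genes named for the order of mice, the lowest p-value or their neighbours were chosen after their values were seen. The alternatives were other limits, filters, scalings and pseudocounts, a fit with a replicate block, and fits that left out each mouse in turn. The values of 1 subunit gene are not reported here singly, and it is left out of the plot of FPKM by complex.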

Additional observations from a re-analysis of the deposited data

Results flagged for a closer look

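Of 31 values over the 4 mice that were searched for a mouse apart (26 B6-allele frequencies and the summed FPKM of 5 complexes), 1 was found. The B6-allele frequency of Uqcrh, the hinge protein of complex III, was 0.529 in BM replicate 2 and 0.495 to 0.497 in the other mice, and the gap to the nearest mouse was 0.961 of the whole range, above Dixon's critical value for 4 samples. Chance alone sets a mouse apart in about 1 of 20 such groups.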

How the results depend on the processing

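The 9 calls of allelic imbalance among the subunit genes were kept under other limits, on the frequency itself, after centring each mouse on 0.5, with a variance trend, above a mean FPKM of 10 and among genes beyond the coordinates, with 9 to 12 genes called. With the replicate block, 2 genes were called toward B6 (Atp5e and Cox7a2l) and 2 toward MSM (Atp5o and Ndufab1), and the calls over all genes were 481 and 294 for allelic imbalance and 285 for expression. Over genes, the deviations of both replicates 1 from their cross means correlated at 0.004 for log2(FPKM + 1) and 0.146 for log2 odds. With 2 mice per cross, the replicates 2 mirror these deviations, so each value is a single correlation. Without each mouse in turn, where the lone mouse of a cross was assumed to vary like the other cross, the calls among subunit genes were 1 toward B6 and 0 to 1 toward MSM. The calls over all genes were then 108 to 315 and 73 to 199 in the same order, 0 to 6 for frequency between crosses and 13 to 21 for expression, and the median expression difference of the subunit genes was 0.13 to 0.59. Where the mean FPKM was 10 or more, calls over all genes were 521 toward B6, 329 toward MSM and 1 between crosses. With FPKM scaled to the same sum, 20 genes were called for expression. With thresholds of 0.7 and 0.3, 1 subunit gene was past the upper one. The direction of log2 odds turned for genes near 0, namely Uqcrc2 and Uqcrh (both -0.03) after centring, Uqcrh without a mouse in turn (-0.02 to 0.07) and Atp5g2 without a mouse in turn (-0.07 to 0.01). The cause of these changes was not tested, apart from the fewer mice or genes of those fits. No subunit gene was called for expression or for frequency between crosses under any alternative. The centring by transcript length was chosen after seeing the data.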
